A study of Mus musculus with 12 samples.

Results

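The Ms4a genes encode small proteins that cross the cell membrane repeatedly (membrane-spanning 4-domains, subfamily A), and 6 of them were followed here in mouse microglia: Ms4a4a, Ms4a4c, Ms4a6b, Ms4a6c, Ms4a6d and Ms4a7. Each was read by the probe set whose only gene symbol was that gene, and each had exactly 1 such probe set. They are 6 of the 19 Ms4a genes measured and of 19938 named genes in all.

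The study measured RNA with 12 Affymetrix Mouse Gene 1.0 ST arrays in primary microglia, which are the macrophages resident in brain tissue. Knockout-labelled ischemia arrays came from cells of mice labelled as Tlr4 knockouts that spent 24 h at low oxygen and low glucose, and knockout-labelled control arrays from such cells kept under control conditions. Wild-type ischemia and wild-type control arrays came from cells of wild-type mice treated in the same 2 ways. Cells of all 4 groups then had 24 h of normal conditions (reperfusion) before RNA was taken, and each group held 3 arrays numbered 1 to 3.

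The labels do not describe the Tlr4 alteration or its extent. Tlr4 signal averaged 8.71 ± 0.22 in knockout-labelled arrays and 8.74 ± 0.18 in wild-type arrays (log2 signal, SD, n = 6 each), so it did not tell the genotypes apart, and genotypes are given below as labelled. A source label of the wild-type ischemia arrays names the control condition, and their titles, which name the exposure, were followed. The extraction protocol names myocytes, but 17 of 18 measured microglia markers lay above the limit for dim probe sets, with Csf1r, the receptor for colony-stimulating factor, averaging 12.27 log2 and Tmem119 6.51 log2. The shares above that limit were 5 of 8 for B cells, 5 of 10 for T and NK cells, 4 of 9 for mast cells and 6 of 10 for neutrophils. The brightest of these markers were Cd22 at 9.16 log2 and Csf3r at 8.86 log2, and Tmem119 lay no higher than the T cell marker Cd3e at 6.60 log2. The mean signals of these 4 lists were 4.94 to 5.96 log2 per array. Other lists had 7 of 7 markers above the limit for oligodendrocytes, 12 of 14 for border macrophages, 10 of 12 for monocytes and 6 of 8 for astrocytes. Neurons had 5 of 8, and fibroblasts with mural and endothelial cells 7 of 13. Some microglia markers lay little above the limit, such as Slc2a5 at 5.67, P2ry12 at 5.75 and Siglech at 5.85 log2. These shares therefore do not set microglia apart from every other cell type. Whether arrays of the same group represent different cultures or animals is not stated in the labels, and all p-values therefore refer to the spread among these arrays, which may be technical. Knockout-labelled control array 3 stood apart, with a median correlation of 0.976 with the other arrays over all probe sets, where each other array had 0.982 or more. The number of arrays limits the precision of every value below.

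Ms4a proteins act in membranes beside other receptors. The best known relatives are CD20 of B cells, encoded by Ms4a1, and the beta chain of the high-affinity IgE receptor of mast cells, encoded by Ms4a2. The members described here are expressed by macrophages and monocytes, though not all of them only there. In human macrophages MS4A4A associates with the fungal receptor dectin-1, mouse Ms4a4c and Ms4a6b have been listed among genes induced by interferon, and Ms4a7 is commonly used to mark the macrophages of the brain's borders. In the mouse the family lies in a cluster on chromosome 19, where Ms4a7, Ms4a4a, Ms4a4c, Ms4a4b, Ms4a6c, Ms4a6b, Ms4a4d and Ms4a6d follow each other in this order among the measured genes.

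Promoter sequences from RefSeq (GRCm38.p6) were available for 5 of the 6 members, each 300 bases long with 250 bases before the gene's start and 50 after it. The promoters of Ms4a6b and Ms4a6c are shown because the 2 genes moved closely together over the arrays and their promoters share long stretches. Other members moved as closely without such stretches, such as Ms4a4a with Ms4a6b (r = 0.95), and a link between promoter sequence and signal was not tested. The Ms4a6b and Ms4a6c promoters lie on the plus strand, Ms4a6b at chr19:11518309-11518608 and Ms4a6c at chr19:11469118-11469417. Capitals mark runs of at least 12 identical bases in a global alignment of these 2 promoters.
Ms4a6b: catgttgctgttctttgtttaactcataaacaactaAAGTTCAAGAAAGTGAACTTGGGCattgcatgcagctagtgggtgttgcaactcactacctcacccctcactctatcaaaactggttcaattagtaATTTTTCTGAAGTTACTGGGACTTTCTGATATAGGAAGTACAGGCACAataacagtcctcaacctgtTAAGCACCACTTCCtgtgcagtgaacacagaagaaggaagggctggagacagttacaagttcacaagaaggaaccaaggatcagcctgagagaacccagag
Ms4a6c: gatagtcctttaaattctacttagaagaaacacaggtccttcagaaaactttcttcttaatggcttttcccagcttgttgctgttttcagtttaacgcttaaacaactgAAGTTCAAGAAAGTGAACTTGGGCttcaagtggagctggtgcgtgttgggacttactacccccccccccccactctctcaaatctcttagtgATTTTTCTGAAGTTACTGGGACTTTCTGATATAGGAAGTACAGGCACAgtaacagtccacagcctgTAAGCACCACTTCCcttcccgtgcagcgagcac

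In that alignment 64.0% of the 300 positions were identical, 86 bases lay in the capitalised runs and the longest run had 48 bases. Over the other 14 pairs of members' promoters identity was 51.0% to 57.7% and no identical run exceeded 8 bases. The promoter of Ms4a4c, shown because this member had the largest change after ischemia, shares no run of 12 or more bases with any of them and is therefore in lower case (chr19:11407411-11407710, plus strand).
Ms4a4c: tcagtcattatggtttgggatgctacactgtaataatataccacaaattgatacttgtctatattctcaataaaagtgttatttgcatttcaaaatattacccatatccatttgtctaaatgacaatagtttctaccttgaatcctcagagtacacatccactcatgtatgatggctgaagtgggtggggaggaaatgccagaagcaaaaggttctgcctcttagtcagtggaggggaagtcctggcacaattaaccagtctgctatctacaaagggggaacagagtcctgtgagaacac

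Letters of binding motifs were searched on both strands, and 2 are given here. The core of the interferon-stimulated response element was in 0 of the 6 promoters found for the members (Ms4a7 has 2) and in 3.44% of all 32851 promoters in the table. GAGGAAGT, bound by the myeloid factor PU.1, was in 0 of the 6 and in 3.20% of all. The search was then widened, after the sequences had been read, to shorter forms contained in the response element core and in the PU.1 motif. GAAANNGAA, in 8.56% of all promoters, occurred as GAAAGTGAA within the first capitalised run of both genes, starting at position -206 from the start of Ms4a6b and at -133 from that of Ms4a6c, and it also occurred once in each Ms4a7 promoter. AGGAAGT, in 9.35% of all promoters, lay in the longest run, starting at position -86 in Ms4a6b and -17 in Ms4a6c, and a reverse copy at -43 in Ms4a6b had no match in Ms4a6c. These are matches of letters only, and binding was not measured.

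The members covered a wide range of signal. Averaged over the 12 arrays, Ms4a6d had 11.16 log2 (percentile 97.0 of all probe sets), Ms4a7 9.81 (percentile 90.7), Ms4a6c 9.14 (percentile 85.2), Ms4a4a 7.32 (percentile 64.8) and Ms4a6b 7.05 (percentile 61.1). Ms4a4c averaged 5.01 log2 (percentile 24.2) and lay below the limit of 5.36 log2, percentile 30, under which genes were left out of the tests. Thus 5 of the 6 members were tested with 15273 genes in all, and values for Ms4a4c come from a fit without that limit over all 19938 named genes. Signals of different probe sets depend on the probes and are not levels on one scale, so the members are compared with themselves across arrays. Near the background the arrays understate changes, which bears on Ms4a4c. Probe sequences were not used here, and whether probes of one family member also read another was not tested.

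**Figure D1:**
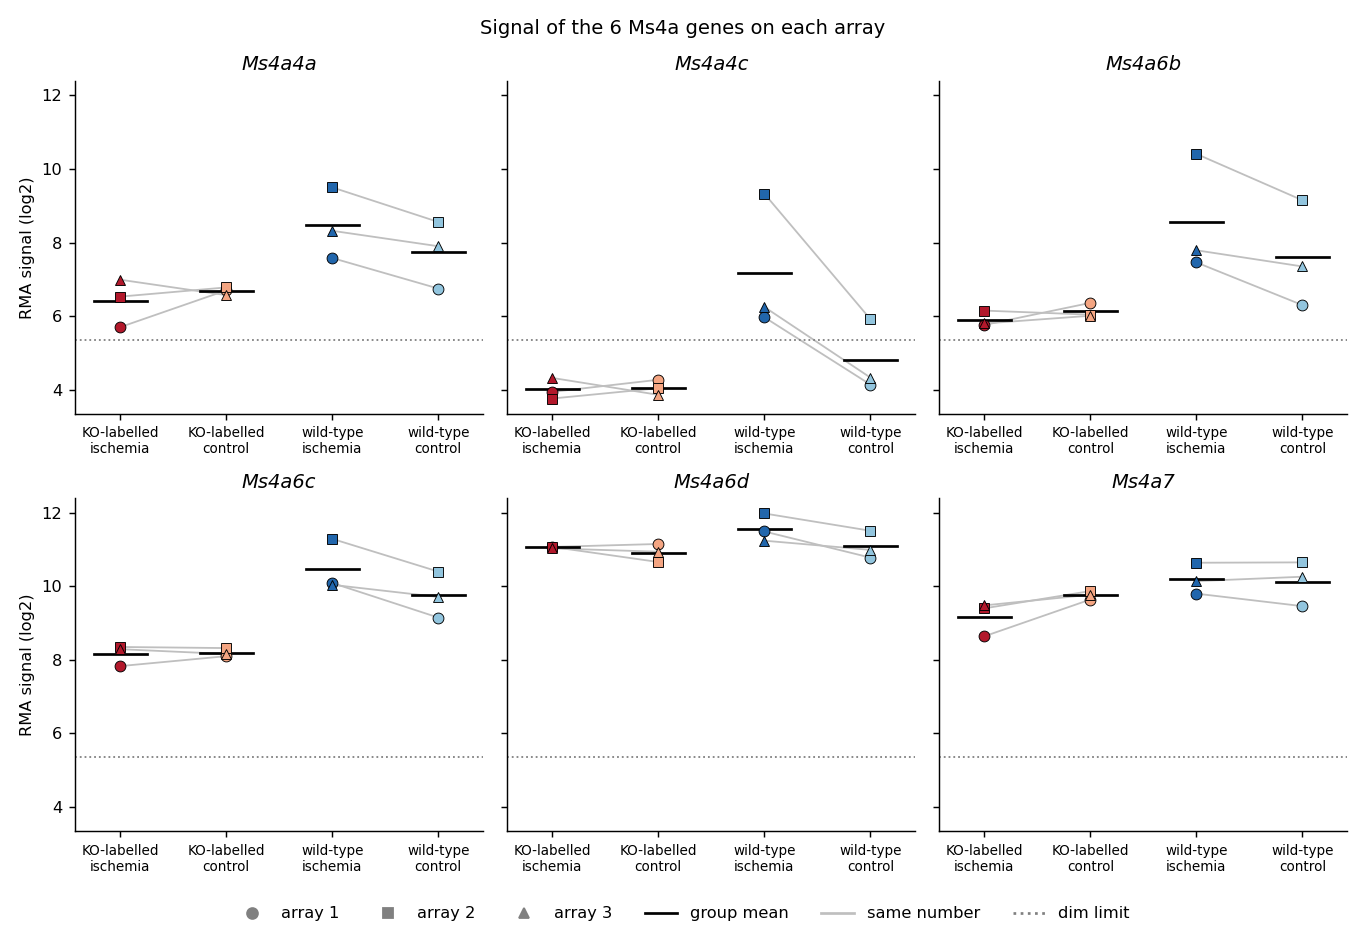
Log2 signal of the 6 members (one panel each) on every array, with the 4 groups side by side on the horizontal axis, a bar at each group mean and the array number given by the symbol. The 3 knockout-labelled ischemia arrays lie below all 3 wild-type ischemia arrays in every panel, and wild-type arrays 2 are the highest of their groups in each panel.

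The design asks 3 questions, which were addressed with limma over all 12 arrays: what ischemia with reperfusion did in each genotype, whether the genotypes differed in each condition, and whether the ischemia effect differed between genotypes. The threshold for passing was an adjusted p under 0.05, with adjustment by Benjamini and Hochberg over every tested gene. Same-numbered ischemia and control arrays of a genotype deviated from their group means together, so a second fit with each such pair as a block (the paired fit) is given beside the first for the ischemia comparisons.

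After ischemia and reperfusion in wild-type cells, 5 members had higher signal in all 3 pairs, as did 21.3% of all named genes. Ms4a4c had the largest change of any named gene on the arrays. Without pairing, 0 of the 5 tested members passed in limma (1 had an unadjusted p under 0.05), where 2 of all 15273 genes did (0.0131%; 2241 at an unadjusted p under 0.05). With pairing, 4 of the 5 rose, against 2.99% of all tested genes that rose. Across the 5 tested members the median change was 0.72 log2, against 0.01 over all tested genes.

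Ms4a4c had 5.97, 9.33 and 6.25 log2 in wild-type ischemia arrays 1, 2 and 3, against 4.14, 5.92 and 4.33 in wild-type control arrays 1, 2 and 3. The groups did not overlap, narrowly, because the control array 2 nearly reached ischemia array 1, and every pair moved up, by 1.82, 3.42 and 1.92 log2. Ms4a4c was the only member whose wild-type groups did not overlap, and 7.78% of all named genes were likewise higher without overlap. Its change was 2.39 log2 (5.23-fold), which ranked 1 of 19938 by size. In the fits without the limit on dim genes its adjusted p was 0.320 in limma without pairing (SE 0.69) and 0.000528 with it (SE 0.25), where 1.23% of all genes rose. Control signals on arrays 1 and 3 lay below the limit for dim genes, so the change runs from near background on those arrays. It passed in the paired fit without the limit when any 1 wild-type pair was left out, with changes of 1.87 to 2.67 log2.

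Ms4a6b had 7.46, 10.41 and 7.79 log2 in wild-type ischemia arrays and 6.30, 9.15 and 7.35 in wild-type control arrays. The array 2 of each condition stood far above the other 2, so the groups overlapped although each pair moved up, by 1.16, 1.26 and 0.44 log2. Its mean change of 0.95 log2 (1.94-fold) had an adjusted p of 0.527 in limma without pairing (SE 0.72) and 0.00442 with it (SE 0.16).

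Ms4a6c, its neighbour, had 10.09, 11.29 and 10.04 log2 in wild-type ischemia arrays and 9.15, 10.40 and 9.71 in wild-type control arrays. Each pair moved up, by 0.94, 0.89 and 0.33 log2, and array 2 was again the highest of both groups. The change was 0.72 log2 (1.64-fold), with an adjusted p of 0.344 in limma without pairing (SE 0.33) and 0.00707 with it (SE 0.13).

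Ms4a4a, whose human counterpart is a macrophage surface protein, had 7.58, 9.50 and 8.32 log2 in wild-type ischemia arrays and 6.75, 8.56 and 7.90 in wild-type control arrays. All pairs moved up, by 0.83, 0.95 and 0.42 log2, within overlapping groups. The change of 0.73 log2 (1.66-fold) passed only barely with pairing in limma (adjusted p = 0.04999, SE 0.19) and did not without it (adjusted p = 0.481, SE 0.49).

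Ms4a6d, which in mouse macrophages is reported to bind the complement receptor Vsig4, was bright on every array, with 11.49, 11.98 and 11.24 log2 in wild-type ischemia arrays and 10.78, 11.51 and 10.99 in wild-type control arrays. It moved up by 0.71, 0.47 and 0.25 log2 in the 3 pairs, the smallest change of the 5 members that moved one way. The mean change of 0.47 log2 (1.39-fold) had an adjusted p of 0.323 in limma without pairing (SE 0.21) and 0.0386 with it (SE 0.12). Higher signal in all 3 pairs, as seen in 5 of the 6 members, was also seen in 21.3% of all named genes.

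The calls for Ms4a4a and Ms4a6d were the less firm ones. Without the limit on dim genes the paired adjusted p in limma was 0.0930 for Ms4a4a and 0.0736 for Ms4a6d, against 0.0127 for Ms4a6b and 0.0183 for Ms4a6c. In the paired fit with that limit, 1 member passed without wild-type pair 1 (Ms4a6b) and 2 passed without pair 2 or without pair 3 (Ms4a6b and Ms4a6c each time). The share of all genes passing is not given for fits with a pair left out. These counts therefore do not show whether the members lost calls more than other genes did.

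Ms4a7, the marker of border macrophages, was the exception in wild-type cells. Its signal was 9.80, 10.64 and 10.14 log2 in wild-type ischemia arrays and 9.46, 10.65 and 10.26 in wild-type control arrays. The pairs differed by 0.33, -0.01 and -0.12 log2, with no common direction, and the mean difference of 0.07 log2 had an adjusted p of 0.932 in limma without pairing and 0.777 with it (95% interval of the paired difference -0.22 to 0.35). Its sign turned under quantile normalization (-0.02 log2).

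**Figure D2:**
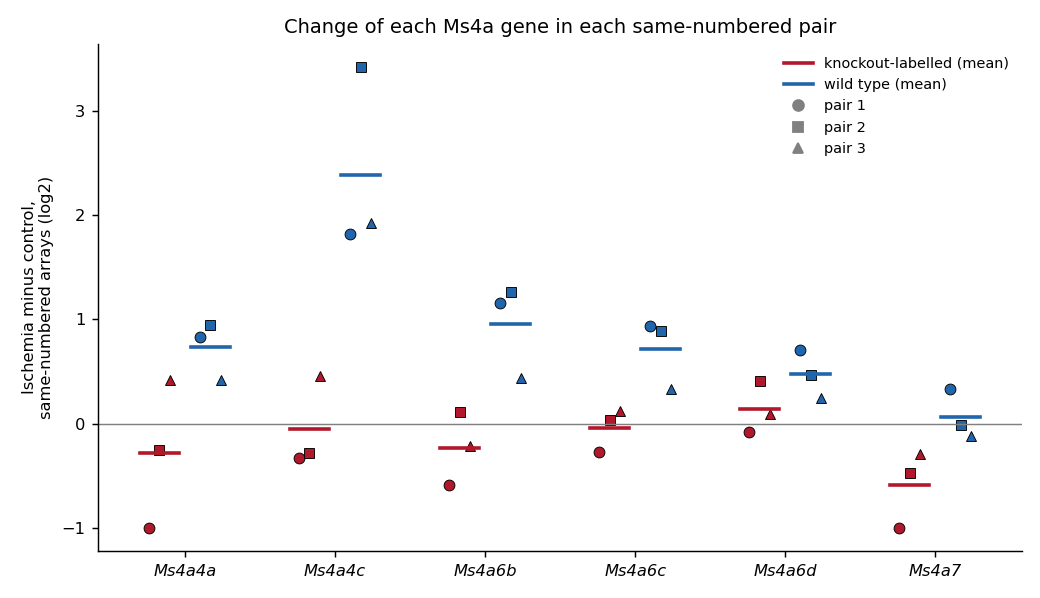
Change of each member between the same-numbered ischemia and control arrays (ischemia minus control, log2), for knockout-labelled and wild-type pairs, with the pair number given by the symbol and a bar at the mean. All 3 wild-type pairs lie above 0 for 5 members (and for 21.3% of all named genes). All 3 knockout-labelled pairs lie below 0 for Ms4a7 only among the members (and for 20.3% of all named genes).

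In knockout-labelled cells no member passed in limma with or without pairing, and at an unadjusted p under 0.05 there were 0 of the 5 without pairing and 1 of the 5 with it, where 19.2% of all genes had such a p. Without pairing 0 of all 15273 genes passed (0%; 1334 had an unadjusted p under 0.05), and with pairing 0.648% did. The median change of the 5 tested members was -0.23 log2, against 0.00 over all tested genes.

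Ms4a7 was the member with the largest difference there. It had 8.64, 9.40 and 9.48 log2 in knockout-labelled ischemia arrays and 9.64, 9.87 and 9.77 in knockout-labelled control arrays. All 3 ischemia arrays lay below all 3 control arrays, with pair differences of -1.0, -0.47 and -0.29 log2, and 7.70% of all named genes were likewise lower without overlap. Lower signal in all 3 pairs was seen in 20.3% of all named genes. The difference of -0.59 log2 had an adjusted p of 0.575 in limma without pairing (SE 0.30) and 0.0580 with it (SE 0.13, 95% interval -0.87 to -0.30), which missed the threshold.

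Ms4a4c had 3.94, 3.76 and 4.32 log2 in knockout-labelled ischemia arrays and 4.27, 4.04 and 3.86 in knockout-labelled control arrays. All 6 values lay below the limit for dim genes and the pairs differed in both directions, by -0.33, -0.28 and 0.46 log2. Ms4a6b had 5.76, 6.15 and 5.80 log2 in knockout-labelled ischemia arrays and 6.36, 6.04 and 6.01 in knockout-labelled control arrays, again with pairs of both signs (-0.59, 0.11 and -0.21 log2). Ms4a6c differed little, with 7.83, 8.35 and 8.29 log2 in knockout-labelled ischemia arrays and 8.10, 8.32 and 8.16 in knockout-labelled control arrays. All these groups overlapped.

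Ms4a4a had 5.70, 6.53 and 6.99 log2 in knockout-labelled ischemia arrays and 6.70, 6.78 and 6.57 in knockout-labelled control arrays. Its 3 ischemia values spread far more than its 3 control values, and the pair differences ran from -1.0 to 0.42 log2. Ms4a6d had 11.07, 11.07 and 11.03 log2 in knockout-labelled ischemia arrays and 11.15, 10.66 and 10.94 in knockout-labelled control arrays, a mean difference of 0.14 log2 within overlapping groups.

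The difference of the 2 ischemia effects, knockout-labelled minus wild type, was tested as an interaction. Its median over the 5 tested members was -0.76 log2, against 0.01 over all tested genes. In limma without pairing 0 members and 0 of all genes passed (0%; 0 members and 443 of all genes had an unadjusted p under 0.05). With pairing 1 of the 5 passed, Ms4a6b, with a lower ischemia effect in knockout-labelled cells (-1.18 log2, SE 0.22, adjusted p = 0.0371), where 0.295% of all genes passed in that direction. Ms4a4c gave -2.44 log2 (SE 0.35), the largest such difference of all 19938 named genes, with an adjusted p of 0.0210 in the paired limma fit without the limit on dim genes, where 0.135% of all genes passed. That call was lost when knockout-labelled pair 1 or pair 2 was left out (adjusted p = 0.0998 and 0.0739). The call for Ms4a6b was lost without wild-type pair 1 or 2 or knockout-labelled pair 1 or 3 (adjusted p of 0.117 to 0.175), and was kept without wild-type pair 3 and without knockout-labelled pair 2, and it was lost without the limit on dim genes (adjusted p = 0.0880). For Ms4a6c, Ms4a4a, Ms4a7 and Ms4a6d the differences of -0.76, -1.01, -0.65 and -0.33 log2 had adjusted p-values of 0.138, 0.240, 0.312 and 0.611 in the paired limma fit.

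After ischemia and reperfusion, all 6 members had lower signal in every knockout-labelled array than in any wild-type array. Among all named genes 7.12% were likewise lower without overlap. The median difference of the 5 tested members was -2.06 log2, against 0.01 over all tested genes. In limma 1 of the 5 passed, Ms4a6c, against 0.648% of all genes that passed in that direction (5 of the 5 members and 1276 of all genes, in either direction, had an unadjusted p under 0.05).

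Ms4a6c averaged 8.15 ± 0.29 log2 in knockout-labelled ischemia arrays and 10.47 ± 0.71 log2 in wild-type ischemia arrays (SD, n = 3 each). The difference was -2.32 log2, a signal ratio of 0.200, with a 95% interval of -3.05 to -1.60 and an adjusted p of 0.00693 in limma. Without knockout-labelled ischemia array 1 the difference was -2.16 log2 and the adjusted p 0.0601 in limma. The call was thus lost with that array left out, although the difference changed little.

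Ms4a4c averaged 4.01 ± 0.28 log2 in knockout-labelled ischemia arrays and 7.18 ± 1.87 log2 in wild-type ischemia arrays. The difference of -3.18 log2 was the largest of the family and ranked 9 of 19938 by size, but with an adjusted p of 0.0745 in limma without the limit on dim genes it did not pass. Ms4a6b averaged 5.91 ± 0.21 log2 in knockout-labelled ischemia arrays and 8.55 ± 1.62 log2 in wild-type ischemia arrays, a difference of -2.65 log2 (adjusted p = 0.175). For both genes wild-type ischemia array 2 stood far above the other 2 arrays of its group.

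Ms4a4a averaged 6.41 ± 0.65 log2 in knockout-labelled ischemia arrays and 8.47 ± 0.97 log2 in wild-type ischemia arrays, a difference of -2.06 log2 (adjusted p = 0.105 in limma). Ms4a7 averaged 9.17 ± 0.46 log2 in knockout-labelled ischemia arrays and 10.19 ± 0.43 log2 in wild-type ischemia arrays, a difference of -1.02 log2 (adjusted p = 0.228). Ms4a6d differed least, with 11.06 ± 0.022 log2 in knockout-labelled ischemia arrays and 11.57 ± 0.38 log2 in wild-type ischemia arrays (-0.51 log2, adjusted p = 0.508). None of these 3 passed, although their groups did not overlap.

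Under control conditions the same direction was seen with smaller differences. The median was -1.05 log2 over the 5 tested members, against 0.00 over all tested genes, and 0 of the 5 passed in limma, where 0.0524% of all genes passed as lower (1 of the 5 members and 1091 of all genes, in either direction, had an unadjusted p under 0.05). Ms4a6c was the 1 member of 6 whose control groups did not overlap, as were 4.08% of all named genes in that direction. It averaged 8.19 ± 0.12 log2 in knockout-labelled control arrays and 9.76 ± 0.63 log2 in wild-type control arrays, a difference of -1.56 log2 (95% interval -2.29 to -0.84, adjusted p = 0.218 in limma).

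The other members overlapped under control conditions. The differences were -1.47 log2 for Ms4a6b, -1.05 for Ms4a4a, -0.74 for Ms4a4c, -0.37 for Ms4a7 and -0.18 for Ms4a6d, with adjusted p-values of 0.705, 0.704, 0.808, 0.766 and 0.835 in limma (for Ms4a4c without the limit on dim genes). The sign for Ms4a6d turned without wild-type control array 2 (0.03 log2). The comparisons all draw on the same 12 arrays and share groups, so they are not independent of each other.

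**Figure D3:**
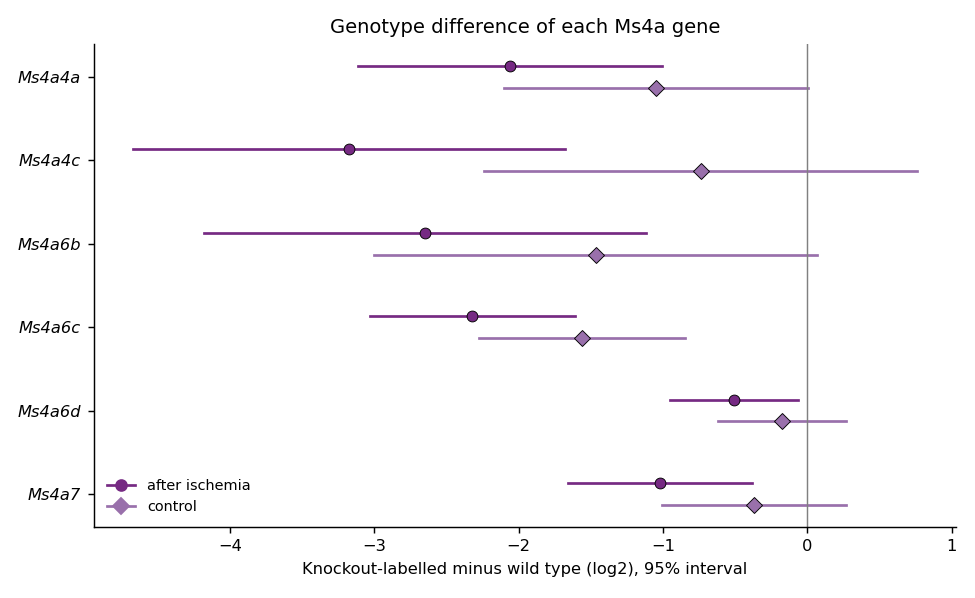
Difference between genotypes (knockout-labelled minus wild type, log2) for each member under ischemia and under control conditions, with 95% intervals from limma without the limit on dim genes, so that Ms4a4c is included. The intervals for Ms4a6c lie below 0 in both conditions, with upper ends at -1.61 log2 under ischemia and -0.85 log2 under control.

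Over both conditions together Ms4a6c was also the only member whose 6 knockout-labelled arrays, at 7.83 to 8.35 log2, all lay below the 6 wild-type arrays, at 9.15 to 11.29 log2. Of all named genes 0.868% separated in that way. From lowest to highest its group means ran knockout-labelled ischemia, knockout-labelled control, wild-type control and wild-type ischemia, and the lowest 2, at 8.15 log2 after knockout-labelled ischemia and 8.19 log2 in knockout-labelled controls, did not differ beyond their spread. The same order of the 4 means held for Ms4a4a, Ms4a4c, Ms4a6b and Ms4a7. For Ms4a4a neither the 2 knockout-labelled nor the 2 wild-type means differed by more than the larger SD of the pair, and for Ms4a6b the 2 wild-type means did not. For Ms4a4c the wild-type control mean, at 4.80 log2, also lay within its SD of both knockout-labelled means, and for Ms4a7 the wild-type ischemia mean of 10.19 log2 lay within 1 SD of the wild-type control mean of 10.13 log2. Ms4a6d had its lowest mean in knockout-labelled control cells, at 10.92 log2, close to knockout-labelled ischemia and wild-type control cells at 11.06 and 11.09 log2.

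The members varied together over the arrays. Over the 12 arrays the signal of Ms4a6b correlated with that of Ms4a6c at r = 0.94, and after the group means had been subtracted still at 0.95. Ms4a4a with Ms4a7 gave 0.91 for signal and 0.96 for deviations, and Ms4a4c with Ms4a6b gave 0.92 and 0.94. The loosest pair was Ms4a6d with Ms4a7, at 0.55 and 0.56. These are descriptions, since within a genotype arrays with the same number moved together, and wild-type arrays 2 stood above the others of their groups for every member.

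**Figure D4:**
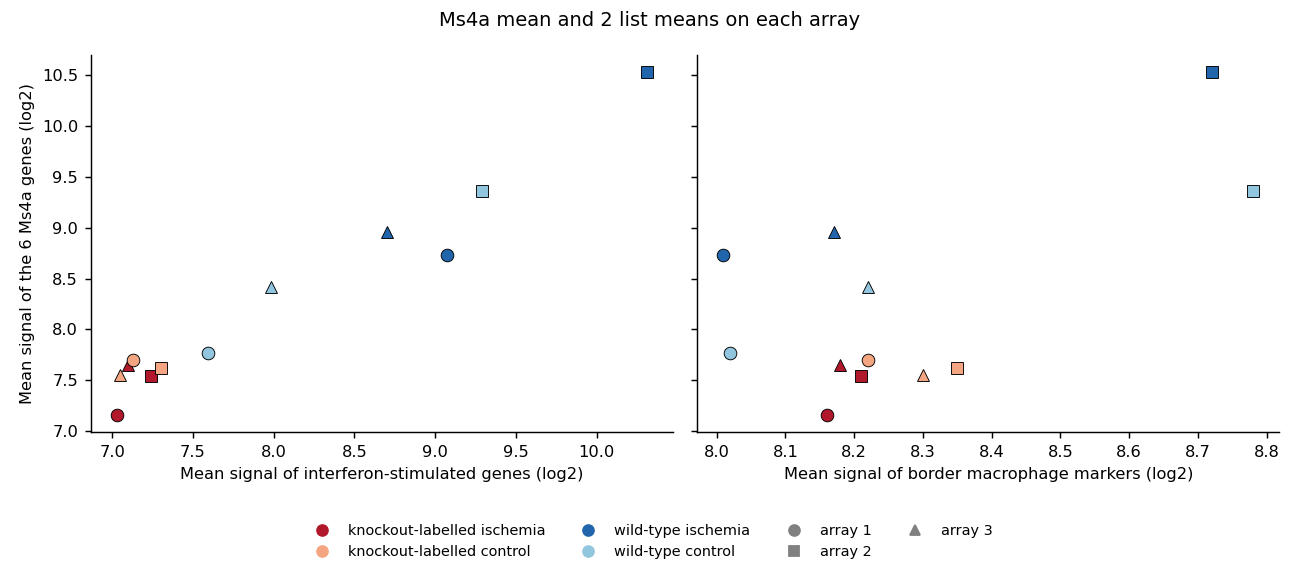
Mean log2 signal of the 6 Ms4a members on each array (vertical axis) against the mean of the interferon list (left) and of the border macrophage list (right), coloured by group with the array number given by the symbol. The 6 knockout-labelled arrays lie together at the lower left of the left panel, and wild-type arrays 2 have the highest value of their groups on both axes of both panels.

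Mean member signal was 7.16, 7.54 and 7.65 log2 in knockout-labelled ischemia arrays, 7.70, 7.62 and 7.55 in knockout-labelled control arrays, 8.73, 10.53 and 8.96 in wild-type ischemia arrays and 7.77, 9.36 and 8.42 in wild-type control arrays. The mean of the interferon list, a set of genes induced by interferon, was 7.03, 7.24 and 7.10 log2 in knockout-labelled ischemia arrays, 7.13, 7.30 and 7.05 in knockout-labelled control arrays, 9.07, 10.31 and 8.70 in wild-type ischemia arrays and 7.59, 9.29 and 7.98 in wild-type control arrays. Over the 12 arrays the 2 means correlated at r = 0.98 (Spearman 0.92, and r = 0.94 without the 2 arrays farthest from the median of the interferon mean). Whether the members' differences follow from those of the interferon genes was not tested.

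Of the interferon list, 29 of 35 genes were measured and all 29 were tested. In wild-type cells after ischemia their median change was 0.98 log2, and 0 passed in limma without pairing (21 had an unadjusted p under 0.05). With pairing 27 rose, against 2.99% of all tested genes. Knockout-labelled cells showed a median of -0.06 log2. Between genotypes after ischemia the median was -1.91 log2. In limma 16 of the 29 were lower in knockout-labelled cells, against 0.648% of all tested genes. Among the 16 were Rtp4, a chaperone-like protein of the interferon response (-4.90 log2, adjusted p = 0.00574), Ifit1, which binds viral RNA (-3.96 log2, adjusted p = 0.0161), Irf7, a transcription factor of the interferon response (-3.94 log2, adjusted p = 0.0108), and Oasl2, of the oligoadenylate synthetase family (-3.12 log2, adjusted p = 0.0123). Under control conditions the median was -0.96 log2 and 0 passed in limma (18 had an unadjusted p under 0.05).

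Marker lists of microglia, border macrophages and monocytes are set beside the members. Microglia markers averaged 8.57 to 8.70 log2 in knockout-labelled ischemia arrays, 8.75 to 8.85 in knockout-labelled control arrays, 8.75 to 9.30 after ischemia in wild-type arrays and 8.60 to 9.26 in the wild-type controls. Border macrophage markers averaged 8.16 to 8.21 log2 in knockout-labelled ischemia arrays, 8.22 to 8.35 in knockout-labelled control arrays, 8.01 to 8.72 after ischemia in wild-type arrays and 8.02 to 8.78 in the wild-type controls, with the top of each wild-type range on array 2. Their r with the member mean was 0.87 for microglia markers and 0.64 for border macrophage markers, and 0.56 and -0.36 without the 2 arrays farthest from the median of each list. Monocyte markers averaged 6.91 to 7.06 log2 in knockout-labelled ischemia arrays, 6.62 to 7.03 in knockout-labelled control arrays, 7.24 to 7.73 after ischemia in wild-type arrays and 7.05 to 7.51 in the wild-type controls, and their r with the member mean was 0.42 (0.34 without the 2 farthest arrays). Of the 12 monocyte markers measured 10 lay above the limit for dim genes, with Fn1 the highest at 11.05 log2, while Ccr2 and Plac8, at 4.83 and 4.18 log2, lay below it. In the paired limma fit 3 of the 10 tested monocyte markers rose after ischemia in wild-type cells (Chil3, Hp and Clec4e), as did 2 of 17 microglia markers (Aif1 and P2ry13) and 2 of 12 border macrophage markers (Pf4 and Siglec1), while 2 of those 12 fell (Folr2 and Stab1). Of all tested genes 2.99% rose and 0.74% fell there. In knockout-labelled cells 3 of the 17 microglia markers fell in the paired limma fit (Cx3cr1, C1qa and C1qb), and of the border macrophage markers Pf4 rose and Folr2 and Stab1 fell. Of all tested genes 0.537% rose and 0.111% fell in these cells. Between genotypes after ischemia the monocyte marker Hp, which encodes haptoglobin (-2.63 log2, adjusted p = 0.0132 in limma), and the border macrophage marker Siglec1, a sialic acid-binding receptor (-1.72 log2, adjusted p = 0.0127), were lower in knockout-labelled cells. Each was the only marker of its list to pass there, where 0.648% of all tested genes passed as lower. Of the 10 tested monocyte markers 8 were lower and 2 higher (median -0.33 log2). Of the 12 tested border macrophage markers 6 were lower and 6 higher (median -0.01 log2). The part of these cell types in the members' differences was not tested, and in bulk RNA fewer cells of a type and less RNA per cell cannot be told apart.

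Both wild-type arrays 2 were also left out, a setting chosen after the data were seen, in limma without pairing. These arrays were the highest of their groups for every member, so leaving them out narrows the members' spread by selection. The p-values of this setting therefore add no support, and it leaves fewer wild-type arrays. Only members that passed are given, without the share of all genes that passed. With all arrays the differences after ischemia were larger, at -2.32 log2 for Ms4a6c, -2.65 for Ms4a6b and -3.18 for Ms4a4c. Without both wild-type arrays 2 the genotype difference of Ms4a6c (knockout-labelled minus wild type) was -1.91 log2 after ischemia (adjusted p = 0.000109) and -1.24 log2 under control conditions (adjusted p = 0.00836). That of Ms4a6b after ischemia was -1.72 log2 (adjusted p = 0.00292). Without the limit on dim genes Ms4a4c rose by 1.87 log2 after ischemia in wild-type cells (adjusted p = 0.00404) and was lower in knockout-labelled cells after ischemia (-2.10 log2, adjusted p = 4.31e-05). The difference of its 2 ischemia effects was then -1.92 log2 (adjusted p = 0.0460).

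The 3 genes outside the family whose signal over the 12 arrays was most like that of each member were taken by Pearson correlation. For Ms4a6c they were Irf7, Oas2 and Oas3 (r = 0.990, 0.986 and 0.986). For Ms4a6b they were Aif1, which encodes the microglial protein Iba1, Lst1 and Dck (0.988, 0.976 and 0.975), and for Ms4a4c Trex1, a DNA exonuclease, Setdb2 and Gm8995 (0.974, 0.970 and 0.969). Ms4a4a was nearest to Gbp11, a guanylate-binding protein, Aif1 and H2-Q4 (0.964, 0.962 and 0.960).

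Ms4a7 resembled Cxcl16, a membrane-bound chemokine, Tmem176b and Slc15a2 (r = 0.946, 0.908 and 0.899). Ms4a6d gave Pttg1, Ddx24 and Anapc5 (0.937, 0.936 and 0.936). After subtraction of the group means the top gene was Lair1, an inhibitory collagen receptor, for Ms4a4a (0.983), Susd3 for Ms4a4c (0.970), Fbxw17 for Ms4a6b (0.988), Epsti1, an interferon-induced gene, for Ms4a6c (0.973), Ttc28 for Ms4a6d (0.966) and the complement gene C1qb for Ms4a7 (0.949). All are the highest of the tested genes outside the Ms4a family, over 12 arrays that share same-numbered pairs. For the genes most like a member in signal, Spearman correlation ranged from 0.594 (Ms4a4c with Trex1) to 0.986 (Ms4a6b with Lst1). Without the 2 arrays farthest from the member's median, r ranged from 0.759 (Ms4a7 with Slc15a2) to 0.980 (Ms4a6c with Irf7).

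The rest of the family served as a comparison within the locus. Of the 13 other Ms4a genes measured, 3 lay above the limit for dim genes (Ms4a8a, Ms4a10 and Ms4a15), and none of these 3 passed in limma in any comparison, with or without pairing. Ms4a1 lay at 3.87 to 4.35 log2 over the 12 arrays, Ms4a2 at 3.59 to 4.15 and Ms4a4b, a family member of T cells that sits between Ms4a4c and Ms4a6c, at 3.21 to 3.76. All of these were under the limit on every array.

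**Figure D5:**
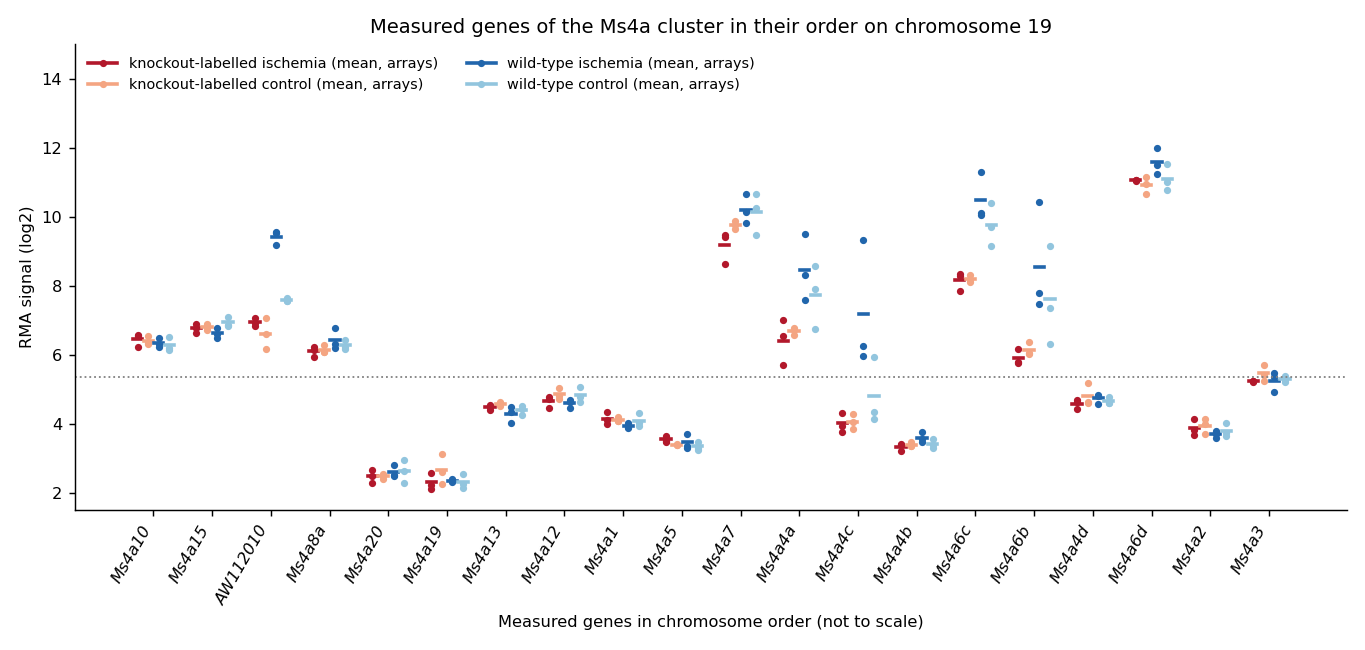
Log2 signal of the measured genes of the Ms4a cluster in their order along chromosome 19 (order only, not to scale), with a point for each array, a bar at each of the 4 group means and a dotted line at the limit for dim genes. For the members and AW112010 the wild-type ischemia mean stands above the knockout-labelled ischemia mean, by the least for Ms4a6d. Some other family genes go the same way by less, such as Ms4a8a and Ms4a4b (-0.326 and -0.255 log2, knockout-labelled minus wild type). Others go the opposite way, such as Ms4a1 and Ms4a2 (0.226 and 0.193 log2). Ms4a1, Ms4a2 and Ms4a4b lie below the line in all 4 groups.

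AW112010, an interferon-inducible mouse transcript first annotated as non-coding, lies inside the cluster and was singled out after its values were seen. It had 6.82, 7.06 and 6.92 log2 in knockout-labelled ischemia arrays, 6.61, 7.06 and 6.16 in knockout-labelled control arrays, 9.54, 9.53 and 9.17 in wild-type ischemia arrays and 7.54, 7.54 and 7.63 in wild-type control arrays. Unlike the members, it was not higher on the wild-type arrays 2. It rose by 1.85 log2 after ischemia in wild-type cells (adjusted p = 0.00406 in limma without pairing and 1.15e-05 with it), and after ischemia the difference between knockout-labelled and wild-type cells was -2.48 log2 (adjusted p = 6.83e-05). In knockout-labelled cells its ischemia difference was 0.33 log2 (adjusted p = 0.595). Of the 8 measured genes on each side of the cluster, 11 lay above the limit for dim genes, and only Ccdc86, before the cluster, passed in a comparison, with 0.52 log2 after ischemia in wild-type cells in the paired limma fit (adjusted p = 0.0161).

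Tmem176a and Tmem176b, distant relatives of the Ms4a proteins encoded on chromosome 6 in the mouse, were measured as well. Tmem176a had 7.13, 7.47 and 7.36 log2 in knockout-labelled ischemia arrays, 7.38, 7.97 and 7.57 in knockout-labelled control arrays, 8.46, 9.59 and 9.36 in wild-type ischemia arrays and 8.05, 9.75 and 9.08 in wild-type control arrays. Like Ms4a6c, it separated all 6 knockout-labelled from all 6 wild-type arrays. After ischemia it was lower in knockout-labelled cells (-1.82 log2, SE 0.37, adjusted p = 0.0454 in limma), and Tmem176b gave -1.42 log2 (adjusted p = 0.0778). Ischemia with reperfusion gave 0.18 log2 for Tmem176a and 0.04 for Tmem176b in wild-type cells.

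Receptors and enzymes that Ms4a proteins have been linked to were tested with them. Of 11 such genes measured, 9 were tested, among them Trem2, a lipid receptor of microglia, its adaptor Tyrobp, Clec7a, which encodes dectin-1, the kinase Syk and the inflammasome sensor Nlrp3, and 0 passed in limma in any comparison or in the paired fit. At an unadjusted p under 0.05 there were at most 3 of the 9, both in wild-type cells after ischemia in the paired fit, where 24.1% of all genes had such a p, and between genotypes under control conditions, where 7.14% did. In the knockout-labelled minus wild-type difference after ischemia their median was -0.08 log2. Trem2 and Clec7a differed by 0.31 and 0.20 log2 after ischemia in wild-type cells (adjusted p = 0.206 and 0.242 in the paired limma fit). The nearest to the threshold was Nlrp3 after ischemia in knockout-labelled cells, with 0.52 log2 and an adjusted p of 0.0555 in the paired limma fit.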

How the data were processed

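RNA of 12 samples was hybridised to Affymetrix Mouse Gene 1.0 ST arrays. The deposited values are log2 signals made by the authors with RMA in Affymetrix Expression Console 1.1, per the submitters' processing notes. RMA corrects background, normalizes between arrays and summarises probes, so values are relative and low signals are compressed. Array medians were 6.30 to 6.40 log2.

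Of 35557 probe sets, 21789 carried a single gene symbol (21698 were updated through Entrez identifiers), 1621 carried several and 12147 had no entry in the annotation used; only the single-symbol ones were named. The brightest probe set stood for each of 19938 genes. A gene was tested where its mean exceeded percentile 30 of the probe set means (5.36 log2).

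The model (limma 3.58.1 under R 4.3.3, functions lmFit and eBayes) had a mean for each group and used every array, with Benjamini-Hochberg adjustment over all 15273 genes. The paired fit adds a block for each genotype and number. Its basis is that deviations of same-numbered arrays correlated at 0.48, 0.73 and 0.48 in wild-type and at 0.36, 0.32 and 0.49 in knockout-labelled cells, each above a minimum of 0.1. Some unlike-numbered arrays of a genotype also passed that minimum, though each lay below the same-numbered values of the arrays involved. These were wild-type ischemia 3 with control 1 (0.40), wild-type ischemia 1 with control 3 (0.12) and knockout-labelled ischemia 2 with control 1 (0.22). The correlations alone therefore do not establish the pairing. Between genotypes same-numbered arrays correlated at -0.33 to 0.33 and were not paired. What the numbers mark is not stated. The steps were tested on simulated data with known changes. Alternatives were the replicate block, the limit on dim genes, quantile normalization, median centring, the mean of all probe sets, the arrays in the fit and leaving out arrays.

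The members, gene lists and tests were chosen with earlier results of these data known. All members are named. Of the other family genes, the partners and the interferon list, up to 4 genes past the threshold with the largest change in a comparison are named, then for each member the 3 genes most like it over the arrays, and the measured neighbours of the cluster that passed. AW112010, the partners with values and the cell type markers are named beyond that rule, after their values were seen. Promoters came from RefSeq tables (GRCm38.p6); the result for 1 further motif searched is not reported here. No genome build for the array annotation is named in these sources, so array genes carry no coordinates and the gene table gave only names and order.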

Additional observations from a re-analysis of the deposited data

Results flagged for a closer look

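Ischemia with reperfusion had a lower effect on Ms4a6b in knockout-labelled than in wild-type cells in the paired fit, by a difference of -1.18 log2 (limma interaction, adjusted p = 0.0371). The knockout-labelled pairs gave -0.59, 0.11 and -0.21 log2 and the wild-type pairs 1.16, 1.26 and 0.44 log2. For Ms4a4c the same test without the limit on dim genes gave -2.44 log2 (adjusted p = 0.0210 in limma), with knockout-labelled pairs at -0.33, -0.28 and 0.46 log2 and wild-type pairs at 1.82, 3.42 and 1.92 log2. Both genes were noted because the difference between the genotypes' effects itself passed that test. Neither passed without pairing (adjusted p = 0.9996 for Ms4a6b and 0.9984 for Ms4a4c in limma). The call for Ms4a6b was also lost without the limit on dim genes (adjusted p = 0.0880) and without any of 4 of the 6 pairs, and that for Ms4a4c without knockout-labelled pair 1 or 2.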

How the results depend on the processing

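The counts of members passing in limma were 0 for ischemia in wild-type cells, 0 in knockout-labelled cells, 1 between genotypes after ischemia, 0 under control conditions and 0 for the difference of effects. The replicate block had the most effect. With the replicate block within genotype the count was 4 in wild-type cells and 1 for the difference of effects. With 1 pair left out it was 1 to 2 in wild-type cells, and 0 to 2 for the difference. Without the limit on dim genes the block gave 3 in wild-type cells and 1 for the difference, 1 to 3 and 0 to 2 with 1 pair left out, and 4 when only wild-type arrays were fitted. A replicate block of 3 levels over all arrays gave 4 after ischemia and 1 under control conditions between genotypes. In knockout-labelled cells no setting tried gave a call.

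Without the block, leaving out 1 array gave 0 to 1 members after ischemia between genotypes. Leaving out both wild-type arrays 2 gave 2 after ischemia and 1 under control conditions, and with the limit on dim genes dropped as well it gave 3 after ischemia, 1 under control conditions, 1 for ischemia in wild-type cells and 1 for the difference. Other normalizations and filters moved none of these counts. Shares of all genes passing are not given for settings that left out arrays or pairs, changed the block to 3 levels or fitted only wild-type arrays. Counts in those settings therefore do not show whether the members moved apart from other genes.

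Small differences changed sign in some settings, and the cause was not tested. In knockout-labelled cells after ischemia Ms4a4a ranged from -0.571 to 0.075 log2 when 1 array was left out (0.075 without ischemia array 1) and became 0.084 in both paired fits without pair 1. Ms4a6c ranged from -0.138 to 0.124 (0.024 without knockout-labelled control array 2, 0.124 without ischemia array 1) and became 0.075 in both paired fits without pair 1. Ms4a4c became 0.092 and 0.065 in the paired fit without the limit on dim genes when pair 1 or pair 2 was left out. Ms4a7 in wild-type cells ranged from -0.264 (without control array 1) to 0.331, with -0.158 without ischemia array 2, -0.066 in both paired fits without pair 1 and -0.02 with quantile normalization. Ms4a6d between genotypes under control conditions ranged from -0.332 to 0.032 (without wild-type control array 2), and was 0.032 without both wild-type arrays 2, with or without the limit on dim genes.

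Signals near background limit what can be read for Ms4a4c, 3 arrays a group limit every test, and the pairing rests on the data alone.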
